A study of Mus musculus with 16 samples.

Results

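The 9 genes described here make up a list of osteoblast genes, taken by symbol from an expression table of 20325 mouse genes. They are the transcription factors Runx2 and Dlx5, the enzyme gene Alpl, the matrix genes Spp1, Ibsp, Dmp1, Postn and Sparc, and the decoy receptor gene Tnfrsf11b. They were followed across 16 libraries of C3H10T1/2 cells, a mouse mesenchymal line that can be steered toward bone, cartilage or fat. Every group stably expressed a lentiviral histone H3 transgene, introduced over 2 days and followed by 4 days in puromycin (1.5 µg/ml). Polyadenylated RNA was read out in 2 libraries per group. The tested transgenes were H3.1 with G34W, H3.3 carrying G34W together with K27R (H3.3 G34W K27R) or with K36R (H3.3 G34W K36R), H3.3 G34R, H3.3 G34W and H3.3 K27R, and the controls were H3.1 wild type and H3.3 wild type. A transgene is named by the residue replaced, its position in H3 and the new residue. The cells keep their own histone genes, and the labels name no clone, so the transgene histone adds to the pool already present.

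Osteoblasts build bone by secreting a collagen-rich matrix and then mineralizing it. RUNX2 is the transcription factor required to enter the lineage, and DLX5 is a homeodomain factor that acts with it and can induce it. Tissue-nonspecific alkaline phosphatase, the product of Alpl, removes pyrophosphate, an inhibitor of mineral growth. Spp1 (osteopontin), Ibsp (bone sialoprotein) and Dmp1 (dentin matrix protein, typical of osteocytes) encode acidic phosphoproteins of mineralized matrix and lie in 1 gene cluster. Periostin (Postn) and osteonectin (Sparc) bind collagen and are made by many mesenchymal cells. Osteoprotegerin (Tnfrsf11b) is secreted and captures RANKL, the cytokine that drives osteoclast formation. H3.3 G34W is the histone change found in giant cell tumour of bone.

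The values are the deposited normalized expected counts, and they are compared between groups for 1 gene at a time, because no gene lengths were used. Differences were tested with limma on log2(value + 1) over the 12670 genes whose mean was at least 10, and a gene is called when its Benjamini-Hochberg adjusted p over all these genes is under 0.05. On this scale the fold change of a low gene is understated. H3.1 G34W, H3.1 wild type and H3.3 G34W K36R were sequenced more deeply (6 libraries, an estimated 34.8 to 49.1 M reads) than the remaining groups (10 libraries, 26.02 to 33.8 M reads), so depth and group cannot be told apart where a comparison crosses that split. The spread between the H3.3 wild-type libraries was within sampling noise for 2764 genes with whole read counts, and the pair counts as 1 sample, given as a mean without SD. In H3.3 G34W K27R, H3.3 G34W K36R, H3.3 G34R and H3.3 K27R the pairs were also close, whereas the pairs of H3.1 G34W, H3.1 wild type and H3.3 G34W were far apart. Whether the paired libraries are separate cultures is not stated in the labels, and p-values here reflect the spread between these libraries only. Each call is therefore also given with the 5 close pairs counted as 1 sample each, below named the strict count. That count takes its spread only from the pairs that were far apart. It calls fewer of all tested genes, not only of this list, and none for H3.3 G34W, H3.3 G34R or H3.3 K27R compared with H3.3 wild type.

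The cells carried mesenchymal RNA, and markers of the osteoblast lineage were mixed, some at or near 0 and some present in part of the groups. The 7 mesenchymal markers (Thy1, Vim, Pdgfra, Pdgfrb, Col1a1, Col1a2 and Col3a1) summed to 514066 to 918693 per library. Sp7, the factor that acts after RUNX2, reached at most 7.07, Bglap (osteocalcin) at most 23.1 and Ibsp at most 2.93. Bglap2, the second osteocalcin gene, was 46.6 and 35.1 in H3.3 G34W K27R, 112 and 113 in H3.3 G34R, 91.9 and 11.5 in H3.3 G34W and 52.2 and 53.8 in H3.3 K27R, against 11.4 and 17.4 in H3.3 wild type, and at most 2.27 in H3.3 G34W K36R and the H3.1 groups. Dmp1 and Phex, described below, were also well above 0 in some groups. The labels do not name the cells osteoblasts, and the 9 genes are called the osteoblast list. Osteoclasts and macrophages also make osteopontin. Of their 7 marker symbols 6 are in the table, and the missing Adgre1 is a newer symbol of Emr1, which is present. These markers summed to at most 52.6 in any library, and Ptprc (CD45) reached at most 2.13. Because these are bulk libraries, fewer cells of a type and less RNA per cell cannot be told apart.

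Of the 9 genes, 8 passed the mean of 10 and Ibsp did not. Among these 8 genes, 7 were called for a difference among the 8 groups by limma's moderated F test, where 66.6% of all tested genes were called. Dlx5 was the exception at an adjusted p of 0.109. The strict count called 3 of the 8.

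**Figure D1:**
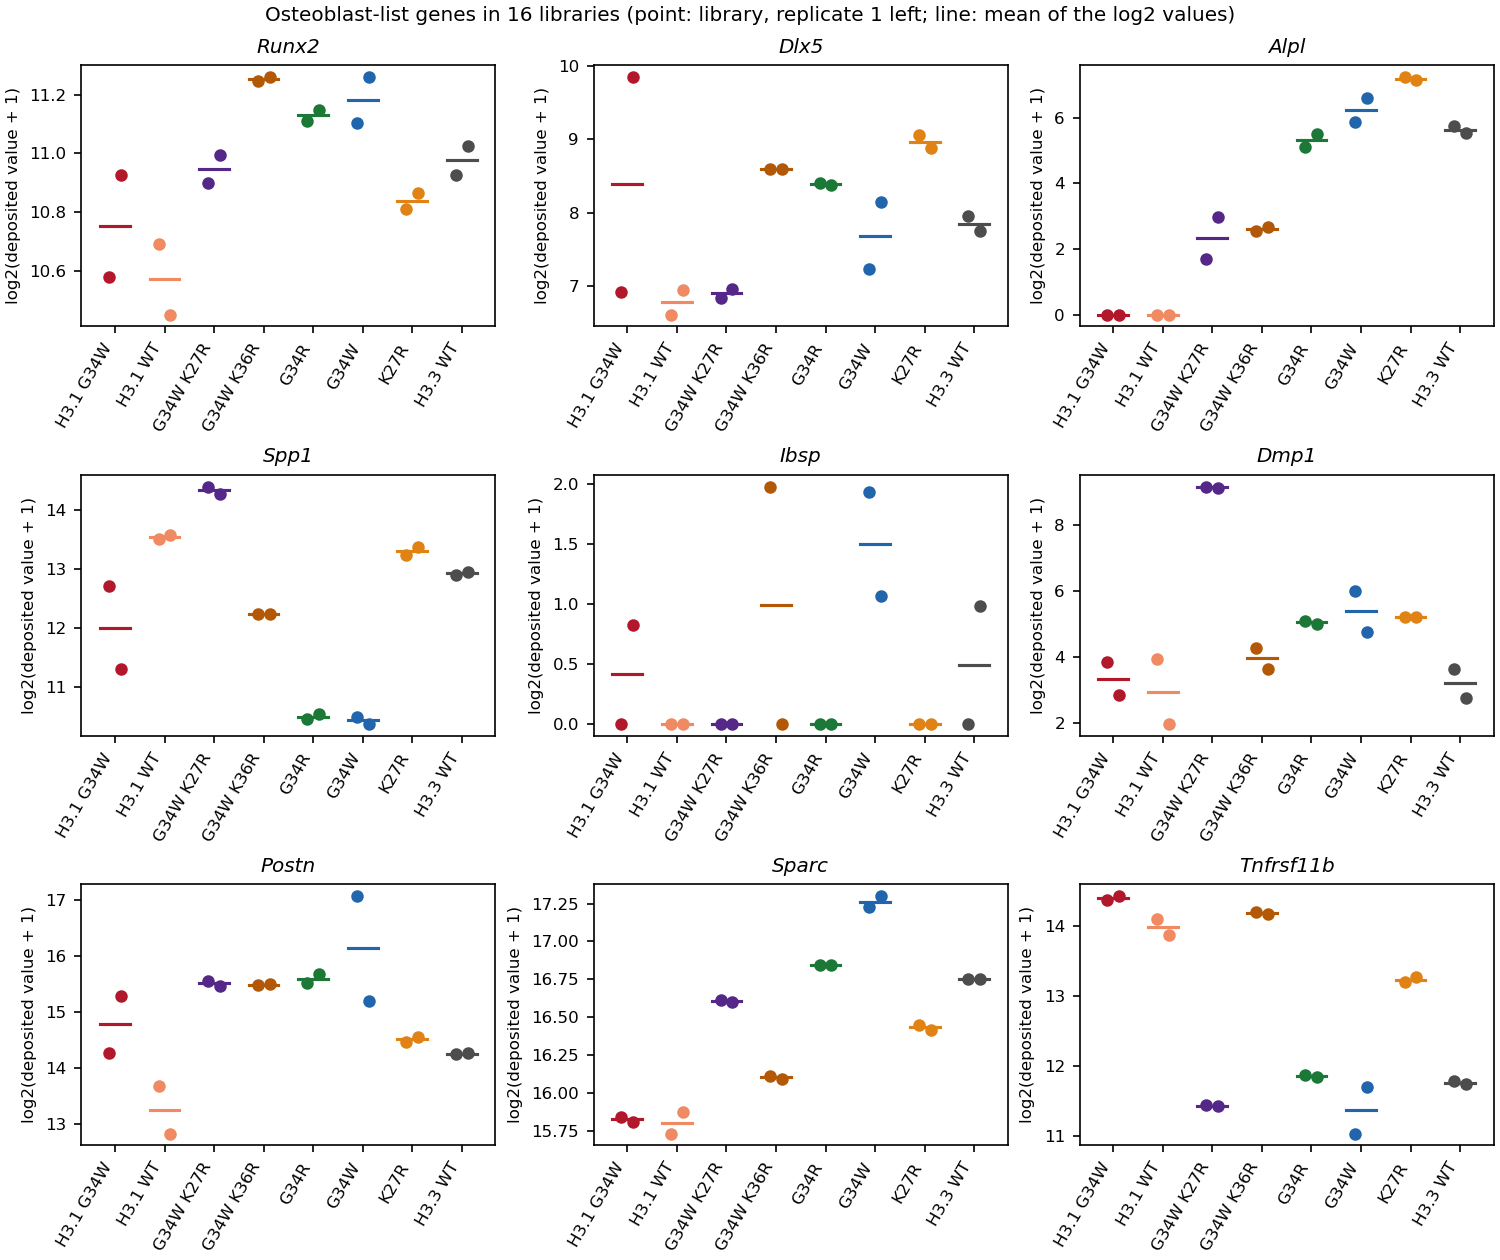
Deposited value of each of the 9 genes in the 16 libraries, on a log2(value + 1) axis, with 1 point per library and a line at each group mean, H3.3 wild type at the right. Runx2 stays within a 1.6-fold range of group means, Dmp1 stands alone at 577 and 557 in H3.3 G34W K27R, and Alpl is listed at 0 in all 4 H3.1 libraries.

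Runx2 was expressed in every library and varied least of the 8 tested genes. Its values were 1531 and 1945 in H3.1 G34W, 1908 and 2038 in H3.3 G34W K27R, and 2426 and 2449 in H3.3 G34W K36R. They were 2212 and 2267 in H3.3 G34R, 2200.4 and 2451 in H3.3 G34W, and 1796 and 1867 in H3.3 K27R. The controls stood at 1652 and 1400.5 in H3.1 wild type and at 1945 and 2085 in H3.3 wild type. The highest group mean was 1.6 times the lowest, and the 3 groups at the top, H3.3 G34W K36R, H3.3 G34W and H3.3 G34R, each overlapped with the next. In no comparison with H3.3 wild type was Runx2 called. Only H3.1 G34W against H3.3 G34W was called (1738 ± 293 against 2326 ± 177, SD, n = 2 each, log2 fold change -0.43 ± 0.14 SE, limma adjusted p = 0.0327). That call was lost under the strict count (adjusted p = 0.309) and without H3.1 G34W replicate 1 (log2 fold change -0.26, adjusted p = 0.179), and without any 1 library of H3.3 G34R, H3.3 G34W K27R, H3.3 G34W K36R or H3.3 K27R it lay between 0.0537 and 0.0559. Without H3.3 G34W replicate 2 it was 0.104, and with these 2 groups fitted alone 0.293.

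Dlx5 differed more between groups than Runx2, and 1 library decided its highest mean. Its values were 119.97 and 924 in H3.1 G34W, against 96.3 and 122 in H3.1 wild type. Within the H3.3 transgenes they were 113 and 123 in H3.3 G34W K27R, 386 and 385 in H3.3 G34W K36R, 336 and 331 in H3.3 G34R, 148 and 281 in H3.3 G34W, and 534 and 469 in H3.3 K27R, against 246 and 213 in H3.3 wild type. The H3.1 G34W libraries differed by almost the whole range of the gene. H3.3 K27R lay above H3.3 wild type in both libraries without passing the test (log2 fold change 1.12 ± 0.86 SE, limma adjusted p = 0.672). With these 2 groups fitted alone, where 55.4% of all genes were called, the same difference had an adjusted p of 1.87e-15. H3.3 G34W K27R lay below H3.3 K27R in both libraries (log2 fold change -2.08), at a limma adjusted p of 0.0531. That difference kept its direction in all 27 alternative fits and was called in 8 of them, not under the strict count (0.705). No comparison of Dlx5 was called in the main fit of all groups.

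Spp1, which encodes osteopontin, was lowest in the glycine 34 single mutants of H3.3 and highest in H3.3 G34W K27R. Its level was 21420.3 and 19630.2 in H3.3 G34W K27R, 4817 and 4829.9 in H3.3 G34W K36R, 1410.1 and 1501 in H3.3 G34R, and 1455 and 1333 in H3.3 G34W. It was 9593 and 10585 in H3.3 K27R, against 7651 and 7895 in H3.3 wild type. In the H3.1 pair it was 6715 and 2525 in H3.1 G34W, against 11594 and 12113 in H3.1 wild type. Every H3.3 G34W and H3.3 G34R library lay below every other library, and both H3.3 G34W K27R libraries lay above all others. Among all 8 groups, the only neighbours in rank whose libraries overlapped were H3.3 G34W K36R with H3.1 G34W and H3.3 G34R with H3.3 G34W. How many of all genes separate as many groups was not counted.

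Spp1 fell in both glycine 34 single mutants, which share H3.3 wild type as their control. In H3.3 G34W the mean was 1394 ± 86.4 (SD, n = 2) against 7773 in H3.3 wild type (log2 fold change -2.48 ± 0.41 SE, limma adjusted p = 0.0235), and Spp1 was the 1 gene called of 8, where 1.18% of all tested genes were called. In H3.3 G34R it was 1456 ± 64.6 (SD, n = 2) against 7773 (log2 fold change -2.42 ± 0.41 SE, limma adjusted p = 0.0134), again the 1 call of 8 beside 2.72% of all genes. H3.3 G34R against H3.3 G34W gave no call among the 8, with 0.845% of all genes called, and 2 of the 8 had an unadjusted p under 0.05. The strict count ended both calls (adjusted p = 0.65 and 0.794). With each mutant fitted with H3.3 wild type alone, the adjusted p was 1 for H3.3 G34W, where no gene was called, and 4.41e-13 for H3.3 G34R, where 60.7% of all genes were. The H3.3 G34W call lay at 0.0513 to 0.0538 without any 1 library of H3.3 G34R, H3.3 K27R or either double mutant, and the H3.3 G34R call at 0.078 to 0.0877 without either of its own libraries.

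With G34W and K27R on the same tail, Spp1 was above both single mutants. Against H3.3 G34W the mean was 20525 ± 1266 against 1394 ± 86.4 (SD, n = 2 each), a log2 fold change of 3.88 ± 0.33 SE (limma adjusted p = 2.85e-05), which held under the strict count (adjusted p = 0.0138) and under all other alternatives tried. Against H3.3 K27R it was 20525 ± 1266 against 10089 ± 701 (SD, n = 2 each, log2 fold change 1.02 ± 0.33 SE, limma adjusted p = 0.0449), and against H3.3 wild type the log2 fold change was 1.40 ± 0.41 SE (limma adjusted p = 0.0452). The last 2 calls were close to the threshold and were lost under the strict count (adjusted p = 0.71 and 0.523), with no filter (0.0524 and 0.0556), with a plain empirical Bayes step (0.059 and 0.0607) and without any 1 library of H3.1 wild type, H3.3 G34R, H3.3 K27R or either double mutant (0.0557 to 0.19 and 0.0578 to 0.161). H3.3 G34W K36R also lay above H3.3 G34W (4823 ± 9.35 against 1394 ± 86.4, SD, n = 2 each, log2 fold change 1.79 ± 0.33 SE, limma adjusted p = 0.00336, and 0.199 under the strict count). It lay below H3.3 wild type in both libraries without being called there.

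Ibsp and Dmp1 lie in the same cluster as Spp1 on chromosome 5, and of these Dmp1 was also highest in H3.3 G34W K27R. Ibsp held at most 3 reads in any library and was above 0 in 5 of 16, so no difference was detectable at this depth. Dmp1 stood at 577 and 557 in H3.3 G34W K27R, against 63.8 and 26.2 in H3.3 G34W, 36.15 and 36.14 in H3.3 K27R, and 11.6 and 5.81 in H3.3 wild type. In the remaining groups it was 13.5 and 6.16 in H3.1 G34W, 14.4 and 2.93 in H3.1 wild type, 18.6 and 11.5 in H3.3 G34W K36R, and 33.4 and 31.4 in H3.3 G34R. No other library came near the pair of H3.3 G34W K27R, whose values rest on 520 and 572 reads, whereas those of H3.3 wild type rest on 12 and 6.

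The rise of Dmp1 in H3.3 G34W K27R was called against each of its 3 references. Against H3.3 wild type the log2 fold change was 5.87 ± 0.78 SE (567 ± 14.3, SD, n = 2, against 8.71, limma adjusted p = 0.000767). Against H3.3 G34W it was 3.75 ± 0.64 SE (567 ± 14.3 against 45.03 ± 26.6, SD, n = 2 each, limma adjusted p = 0.0021), and against H3.3 K27R it was 3.93 ± 0.64 SE (567 ± 14.3 against 36.1, where both libraries had the same level, limma adjusted p = 0.00166). Under the strict count the adjusted p values were 0.0747, 0.145 and 0.296. H3.1 G34W against H3.3 G34W was called lower (9.82 ± 5.17 against 45.03 ± 26.6, SD, n = 2 each, log2 fold change -2.05 ± 0.64 SE, limma adjusted p = 0.027), but not under the strict count (0.165), not after quantile normalization (-1.12, 0.187) and not without H3.1 G34W replicate 2 (-1.54, 0.128) or H3.3 G34W replicate 1 (-1.42, 0.16), nor with these 2 groups fitted alone (0.18).

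The adipocyte marker sum was also high in H3.3 G34W K27R, but it was highest in replicate 1 of H3.3 G34W. All 6 markers listed (Adipoq, Plin1, Fabp4, Cfd, Lipe and Pparg) are in the table, and they summed to 10127 and 9917 in H3.3 G34W K27R. In H3.3 G34W the sum was 16588 in replicate 1 and 851 in replicate 2, in H3.3 K27R it was 1068 and 1023, and in H3.3 wild type 1292 and 1213. Plin1 and Cfd were at 0 in 8 libraries each. In H3.3 G34W replicate 1, Spp1 was 1455 and Dmp1 63.8. Pparg differed less, with means of 1262 in H3.3 G34W K27R, 1380 in H3.1 wild type and 1483 in H3.3 G34W. The part of the adipocyte markers in the Dmp1 and Spp1 results was not tested.

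The sequences just upstream of these clustered genes are shown because Spp1 and Dmp1 were highest in the same group while Ibsp, which lies between them, was not detected above 3 reads. RefSeq windows for 7 of the 9 genes were found (not Dlx5 and Tnfrsf11b), 11 windows in all, on build GRCm38.p6, whereas the expression values were made on mm9. Each window is the 250 bases before an annotated start, written 5′ to 3′ on the strand of the gene. Capitals mark the RUNX core TGTGGT, here read on the opposite strand as ACCACA, or the homeodomain core TAATTA, and both strands were searched. Dmp1 has 2 annotated starts, with windows chr5:104197325-104197574 and chr5:104202367-104202616, Ibsp has 1 with window chr5:104299037-104299286, and Spp1 has 2, with windows chr5:104434861-104435110 and chr5:104435942-104436191, all on the plus strand.
Dmp1, first start: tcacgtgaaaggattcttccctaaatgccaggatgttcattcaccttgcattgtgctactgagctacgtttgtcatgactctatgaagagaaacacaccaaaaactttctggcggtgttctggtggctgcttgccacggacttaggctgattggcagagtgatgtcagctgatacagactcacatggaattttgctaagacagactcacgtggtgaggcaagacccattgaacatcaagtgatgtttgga
Dmp1, second start: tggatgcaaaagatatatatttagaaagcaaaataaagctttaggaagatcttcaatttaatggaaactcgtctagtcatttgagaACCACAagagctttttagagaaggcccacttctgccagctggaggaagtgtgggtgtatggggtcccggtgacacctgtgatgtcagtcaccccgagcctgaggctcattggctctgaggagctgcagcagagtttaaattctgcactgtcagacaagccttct
Ibsp: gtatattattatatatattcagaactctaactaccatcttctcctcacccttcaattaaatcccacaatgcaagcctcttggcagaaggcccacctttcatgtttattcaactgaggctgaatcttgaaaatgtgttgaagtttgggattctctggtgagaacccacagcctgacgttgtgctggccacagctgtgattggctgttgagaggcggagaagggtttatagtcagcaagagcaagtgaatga
Spp1, first start: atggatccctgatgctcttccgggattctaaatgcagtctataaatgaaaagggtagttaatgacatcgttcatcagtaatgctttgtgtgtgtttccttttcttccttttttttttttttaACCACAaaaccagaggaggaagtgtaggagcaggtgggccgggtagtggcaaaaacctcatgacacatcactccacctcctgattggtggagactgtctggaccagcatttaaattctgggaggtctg
Spp1, second start: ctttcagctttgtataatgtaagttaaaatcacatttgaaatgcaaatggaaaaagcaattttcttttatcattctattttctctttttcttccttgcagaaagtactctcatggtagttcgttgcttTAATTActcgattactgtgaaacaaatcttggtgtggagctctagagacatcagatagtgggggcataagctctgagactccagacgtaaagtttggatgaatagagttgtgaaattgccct
The RUNX core begins 164 bases before the second Dmp1 start and 128 bases before the first Spp1 start, and the homeodomain core 122 bases before the second Spp1 start. Neither core is in the Ibsp window. Of the 11 windows of the osteoblast list, 3 hold the RUNX core, where 14% of 32851 windows of the same length hold it, and 1 holds the homeodomain core, where 4.84% do. A match describes the letters and does not show a site in use.

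The third window with a RUNX core is that of Runx2 itself, at chr17:44814628-44814877 on the minus strand, shown because RUNX2 is the factor of the list that reads this core. The core begins 80 bases before the start.
Runx2: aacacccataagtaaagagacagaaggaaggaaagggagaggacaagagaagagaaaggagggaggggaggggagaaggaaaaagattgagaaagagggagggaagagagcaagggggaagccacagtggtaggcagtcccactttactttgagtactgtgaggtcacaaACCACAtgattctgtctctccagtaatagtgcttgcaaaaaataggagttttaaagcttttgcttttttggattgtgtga
Runx2 RNA varied 1.6-fold over group means, as given above, while Spp1 varied 14.7-fold and Dmp1 65.4-fold.

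Alpl was a low gene whose level differed strongly between transgenes. It was listed at 0 in all 4 libraries of H3.1 G34W and H3.1 wild type. It stood at 2.22 and 6.81 in H3.3 G34W K27R (2 and 7 reads) and at 4.89 and 5.29 in H3.3 G34W K36R (5 and 6 reads). The other H3.3 transgenes gave 33.4 and 44.7 in H3.3 G34R, 57.25 and 96.2 in H3.3 G34W, and 149.9 and 140.9 in H3.3 K27R, against 52.3 and 45.5 in H3.3 wild type. The double mutants lay above the H3.1 groups, below every H3.3 single mutant and below H3.3 wild type, and H3.3 K27R lay above all other groups.

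Both double mutants were called lower for Alpl. Against H3.3 G34W (76.7 ± 27.6, SD, n = 2), H3.3 G34W K27R had 4.51 ± 3.25 (log2 fold change -3.91 ± 0.47 SE, limma adjusted p = 0.000226) and H3.3 G34W K36R had 5.09 ± 0.28 (-3.63 ± 0.47 SE, limma adjusted p = 0.000472), each with n = 2. Against H3.3 wild type (48.9) the log2 fold changes were -3.32 (limma adjusted p = 0.00366) in H3.3 G34W K27R and -3.03 (0.00669) in H3.3 G34W K36R. Against H3.3 K27R (145 ± 6.36, SD, n = 2) H3.3 G34W K27R differed by -4.87 ± 0.47 SE (limma adjusted p = 9.65e-05). In the same order, the strict count gave adjusted p values of 0.0696, 0.117, 0.24, 0.351 and 0.129, so none of these 5 calls held under it. The first was also lost with the 2 groups fitted alone (0.0554). The lead of H3.3 K27R over H3.3 wild type was not called (log2 fold change 1.55, limma adjusted p = 0.244), although both of its libraries were higher, and it was called with the control libraries as separate samples (0.0492) and with the 2 groups fitted alone (4.51e-11).

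The 2 H3.1 groups were called lower for Alpl than their H3.3 counterparts, also under the strict count. With the H3.1 groups set to a floor of 3 reads, H3.1 wild type was at least 16.7-fold below the H3.3 wild-type mean (48.9). H3.1 G34W was in the same way at least 24.7-fold below the H3.3 G34W mean (76.7). Each figure is taken with 3 reads in the H3.1 library where 3 reads weigh most. It leaves out the spread of the H3.3 libraries, which reached down to 45.5 in H3.3 wild type and 57.25 in H3.3 G34W. The limma adjusted p values were 0.000112 and 8.62e-06, and 0.0144 and 0.00265 under the strict count. The H3.1 libraries held an estimated 35.6 to 49.1 M reads, more than any H3.3 wild-type or H3.3 G34W library. The floors cover counting error only.

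Sparc, which encodes the collagen-binding glycoprotein osteonectin, was abundant in every library, with little overlap between groups. Its values were 58668 and 57452 in H3.1 G34W, against 54401 and 60169 in H3.1 wild type. Among the H3.3 transgenes they were 100460.2 and 99353 in H3.3 G34W K27R, 70809.6 and 69844 in H3.3 G34W K36R, 117719.9 and 117801 in H3.3 G34R, 153372 and 161318 in H3.3 G34W, and 89340.2 and 87529 in H3.3 K27R, against 110165 and 110438 in H3.3 wild type. Only the 2 H3.1 groups overlapped. Most pairs of libraries lay close together, and how many of all genes separate as many groups was not counted. H3.3 G34W was the highest group and both H3.1 groups the lowest, within a 2.75-fold range of group means.

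Sparc was called lower in the double mutants than in H3.3 G34W (157345 ± 5618, SD, n = 2). H3.3 G34W K36R had 70327 ± 683 (log2 fold change -1.16 ± 0.14 SE, limma adjusted p = 0.000372) and H3.3 G34W K27R had 99907 ± 783 (-0.65 ± 0.14 SE, limma adjusted p = 0.00913), each with n = 2. The strict count gave 0.267 and 0.682. The H3.3 G34W K27R difference was -0.35 with an adjusted p of 0.083 after quantile normalization, and 0.0738 and 0.0783 without either of its libraries. It was 0.117 with these 2 groups fitted alone. H3.3 G34W K36R was also lower than H3.3 wild type (log2 fold change -0.65 ± 0.18 SE, limma adjusted p = 0.0312), which ended under the strict count (0.754) and without any 1 library of H3.3 G34R, H3.3 K27R or either double mutant (0.0661 to 0.143). The higher level in H3.3 G34W than in H3.3 wild type was not called (log2 fold change 0.51, limma adjusted p = 0.231). It was called with both H3.3 wild-type libraries counted separately, without a block on replicate number (0.0352) and with one (0.0473).

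H3.1 groups were lower for Sparc than H3.3 groups with the same residue 34. H3.1 G34W had 58060.1 ± 860.3 against 157345 ± 5618 in H3.3 G34W (SD, n = 2 each, log2 fold change -1.44 ± 0.14 SE, limma adjusted p = 5.5e-05, and 0.0351 under the strict count). H3.1 wild type had 57285 ± 4078 (SD, n = 2) against 110301 in H3.3 wild type (-0.95 ± 0.18 SE, limma adjusted p = 0.00312, and 0.217 under the strict count). With only the 2 compared groups fitted, both calls were lost (adjusted p = 0.084 and 0.202). Both comparisons cross the depth split.

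Postn, which encodes periostin, had a high mean in H3.3 G34W that came from 1 library. Its values were 137240.2 and 37568 in H3.3 G34W, against 19327 and 19542 in H3.3 wild type. They were 47703 and 45333 in H3.3 G34W K27R, 45859 and 45980.1 in H3.3 G34W K36R, 46841 and 52099 in H3.3 G34R, and 22471 and 24105 in H3.3 K27R. In the H3.1 pair they were 19775 and 39713 in H3.1 G34W, against 13055 and 7249 in H3.1 wild type. In every group that carried a change at glycine 34, both libraries lay above their own wild type, as did both H3.3 K27R libraries, and none of these differences was called in the fit of all groups. How many of all genes lie apart from wild type in the same groups was not counted. The log2 fold changes against H3.3 wild type were 1.26 in H3.3 G34W K27R, 1.24 in H3.3 G34W K36R, 1.35 in H3.3 G34R and 1.89 in H3.3 G34W, with limma adjusted p values of 0.237, 0.211, 0.37 and 0.222. Without H3.3 G34W replicate 2, the H3.3 G34W difference was 2.82 and was called (adjusted p = 0.00551). With both H3.3 wild-type libraries counted separately it was called at 0.0433. With each group fitted with H3.3 wild type alone, where 67.1%, 75.5% and 60.7% of all genes were called, Postn was called in H3.3 G34W K27R (2.61e-10), H3.3 G34W K36R (1.33e-11) and H3.3 G34R (2.98e-06). In H3.3 G34W that fit gave an adjusted p of 1.

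The H3.3 G34W libraries also differed in markers of other lineages. Replicate 1, with the high Postn, had adipocyte markers summing to 16588 against 851 in replicate 2. The 6 chondrocyte markers (Sox9, Acan, Col2a1, Col10a1, Col9a1 and Hapln1) summed to 14908 in replicate 1 and 86748 in replicate 2, with Acan at 0 in 10 of the 16 libraries. The part of these markers in the Postn values was not tested.

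Tnfrsf11b, the decoy receptor for RANKL, split the groups into high, middle and low levels. It stood at 21256 and 22063 in H3.1 G34W, 17633 and 15022 in H3.1 wild type and 18896 and 18497 in H3.3 G34W K36R. It was 9402 and 9883 in H3.3 K27R. It was 2791 and 2755 in H3.3 G34W K27R, 3752 and 3694 in H3.3 G34R, and 2104 and 3335 in H3.3 G34W, against 3554 and 3421 in H3.3 wild type. The high groups are the 3 sequenced more deeply, and H3.3 K27R stood between them and the low groups without overlap. Among neighbours in rank, only H3.3 G34W K27R and H3.3 G34W overlapped. The share of all genes with as little overlap was not counted. Tnfsf11, the gene of RANKL itself, reached at most 1.88 in any library.

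Tnfrsf11b rose when K36R was added to G34W. H3.3 G34W K36R had 18697 ± 283 against 2719.7 ± 870.4 in H3.3 G34W (SD, n = 2 each, log2 fold change 2.82 ± 0.19 SE, limma adjusted p = 9.5e-06, and 0.0226 under the strict count). Against H3.3 wild type (3488) the log2 fold change was 2.42 ± 0.23 SE (limma adjusted p = 0.000189, and 0.0929 under the strict count). With K27R alone it was also higher, at 9642 ± 340 (SD, n = 2) against 3488 in H3.3 wild type (log2 fold change 1.47 ± 0.23 SE, limma adjusted p = 0.00776). That call was lost under the strict count (0.882) and without either H3.3 K27R library (0.0511 and 0.0663). With G34W on the K27R tail it was lower than with K27R alone (2773 ± 25.4 against 9642 ± 340, SD, n = 2 each, log2 fold change -1.80 ± 0.19 SE, limma adjusted p = 0.000144, and 0.176 under the strict count).

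The H3.1 groups were higher for Tnfrsf11b than their H3.3 counterparts. H3.1 G34W had 21659 ± 571 against 2719.7 ± 870.4 in H3.3 G34W (SD, n = 2 each, log2 fold change 3.03 ± 0.19 SE, limma adjusted p = 2.64e-06, and 0.00174 under the strict count). H3.1 wild type had 16327 ± 1846 (SD, n = 2) against 3488 in H3.3 wild type (2.22 ± 0.23 SE, limma adjusted p = 0.00012, and 0.0206 under the strict count).

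The comparisons can also be read by how many of the 8 tested genes each moved, next to the share of all tested genes that the same test called. H3.3 K27R compared with H3.3 wild type called 1 of 8 (Tnfrsf11b) beside 2.75% of all genes. H3.3 G34W K27R called 3 of 8 against H3.3 wild type (Alpl, Spp1 and Dmp1) beside 14.3%, 4 of 8 against H3.3 G34W (those and Sparc) beside 21.6%, and 4 of 8 against H3.3 K27R (Alpl, Spp1, Dmp1 and Tnfrsf11b) beside 26.2%. Alpl, Spp1 and Dmp1 were thus called in all 3 comparisons of this double mutant, which is 1 group set against 3 references. H3.3 G34W K36R called 3 of 8 against H3.3 wild type (Alpl, Sparc and Tnfrsf11b) beside 17.1%, and 4 of 8 against H3.3 G34W (those and Spp1) beside 30.6%. H3.1 wild type against H3.3 wild type called 3 of 8 (Alpl, Sparc and Tnfrsf11b) beside 33.4%. H3.1 G34W against H3.3 G34W called 6 of 8 beside 40.9%. Where a large share of all genes was called, several of the 8 were called too, and no share of the list was tested against the background.

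Within H3.1, G34W moved none of the 8 genes past the threshold. Limma called 0 of 8 and 0% of all genes for H3.1 G34W compared with H3.1 wild type, with 3 of the 8 and 2015 of the 12670 genes at an unadjusted p under 0.05. The strict count also called 0 of 8. The pair of H3.1 G34W libraries was far apart, as for Spp1 at 6715 and 2525 against 11594 and 12113 in H3.1 wild type (log2 fold change -1.52, limma adjusted p = 0.269). Without H3.1 G34W replicate 1 that difference was -2.23 and called (adjusted p = 6.25e-05), and without H3.1 wild type replicate 1 it was -1.56 and called (0.0418). In the smooth muscle and myofibroblast markers (Acta2, Tagln, Cnn1 and Myh11, 4 of 4 in the table, none at 0) H3.1 G34W replicate 1 summed to 201055 and replicate 2 to 59089, against 193279 and 253868 in H3.1 wild type. These sums are mostly Acta2, while Cnn1 and Myh11 had group means of at most 5.52 in both H3.1 groups. The part of the difference between the H3.1 G34W libraries was not tested. The interaction of G34W with histone type, the difference with G34W on H3.1 minus that on H3.3, called 0 of 8 beside 0.197% of all genes, with 1 of the 8 at an unadjusted p under 0.05 and 0 of 8 under the strict count.

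**Figure D2:**
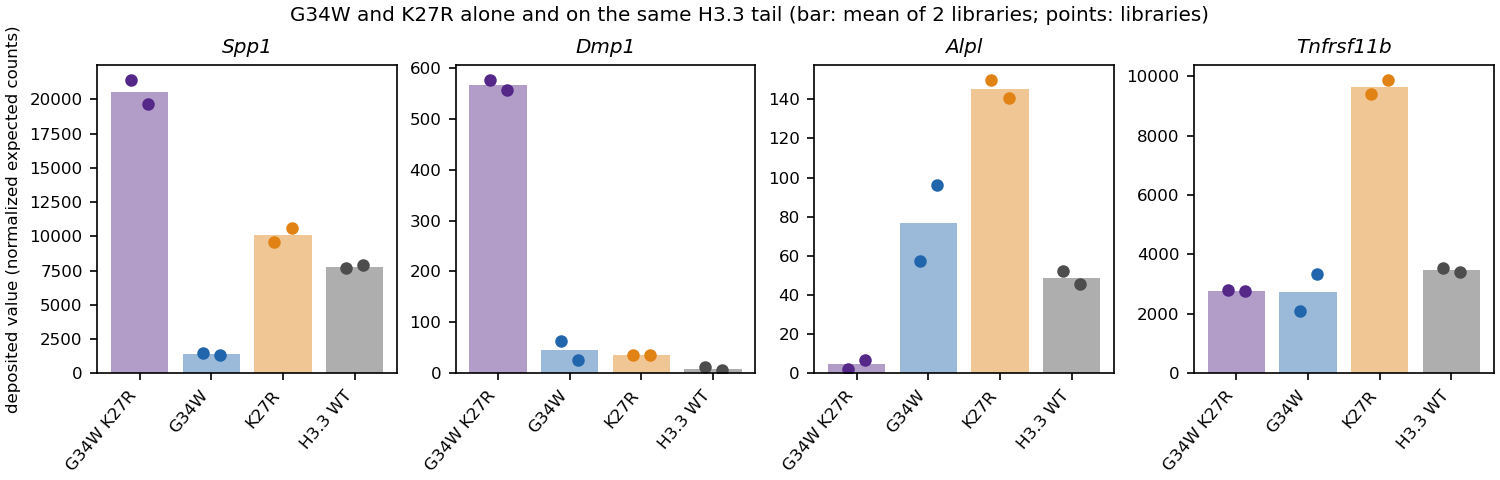
Deposited values of Spp1, Dmp1, Alpl and Tnfrsf11b in H3.3 G34W K27R, H3.3 G34W, H3.3 K27R and H3.3 wild type, each on its own linear axis from 0, with a bar at the mean and 1 point per library. Spp1 and Dmp1 are highest in the double mutant, Alpl is lowest there, and Tnfrsf11b is highest in H3.3 K27R.

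The 4 groups that hold H3.3 with G34W, K27R, both or neither form a factorial design, so the effect of G34W with and without K27R could be set side by side. Spp1 was lower with G34W on an otherwise unchanged tail (1394 against 7773) and higher with G34W on the K27R tail (20525 against 10089), and the interaction was called (log2 difference 3.50 ± 0.53 SE, limma adjusted p = 0.00343). Alpl ran the other way, with 76.7 against 48.9 on the unchanged tail and 4.51 against 145 on the K27R tail (-5.46 ± 0.74 SE, limma adjusted p = 0.00215). Tnfrsf11b was lower with G34W in both settings, 2719.7 against 3488 and 2773 against 9642 (-1.40 ± 0.29 SE, limma adjusted p = 0.0168). Dmp1, at 45.03 against 8.71 and 567 against 36.1, was higher with G34W in both settings, and its interaction was not called (log2 difference 1.82, limma adjusted p = 0.33). On the unchanged tail alone, the difference with G34W was called for Spp1 but not for Alpl, Tnfrsf11b or Dmp1 (limma adjusted p = 0.73, 0.512 and 0.268). The interaction called 3 of 8 genes beside 7.95% of all genes, and 0 of 8 under the strict count, where the adjusted p was 0.307 for Spp1, 0.322 for Alpl and 0.764 for Tnfrsf11b. Without any 1 library of H3.3 G34W K27R or H3.3 K27R the Tnfrsf11b interaction lay between 0.0588 and 0.0687, and with these 4 groups fitted alone it was 0.0875.

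**Figure D3:**
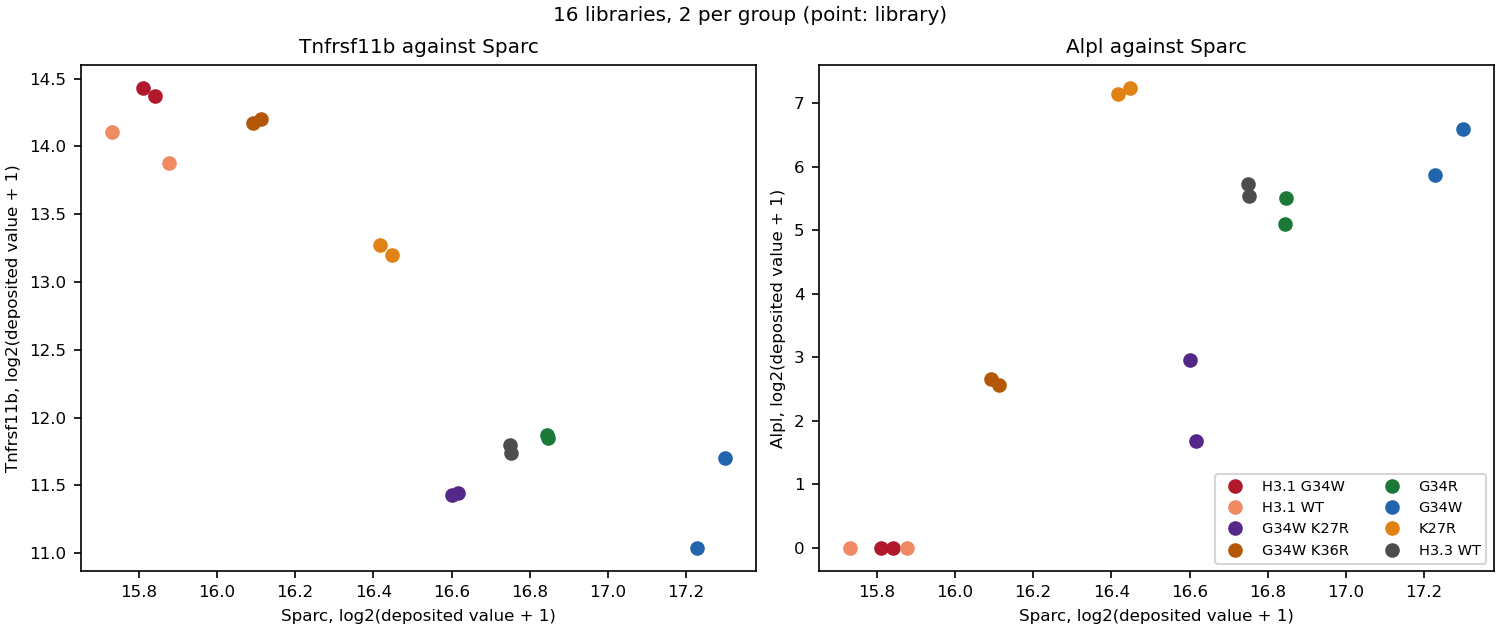
Tnfrsf11b (left) and Alpl (right) against Sparc on log2(value + 1) axes, 1 point per library coloured by group. The H3.1 G34W, H3.1 wild type and H3.3 G34W K36R libraries sit together at low Sparc and high Tnfrsf11b, and their Alpl is at 0 or at most 5.29.

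The 3 deeper groups shared low Sparc, high Tnfrsf11b and low Alpl, and of these only low Alpl was also found in H3.3 G34W K27R. In H3.1 G34W, H3.1 wild type and H3.3 G34W K36R, Sparc was 54401 to 70809.6 and Tnfrsf11b 15022 to 22063, while in the other 10 libraries Sparc was at least 87529 and Tnfrsf11b at most 9883. The 2 sets of libraries do not overlap in either gene, and how many of all genes split them likewise was not counted. No single residue change or histone type is common to all 3 groups, and depth cannot be told apart from the transgene here. H3.3 G34W K36R differed from the H3.1 groups in Alpl, with 5 and 6 reads where H3.1 libraries had 0, and in Postn, where 45859 and 45980.1 lay above all 4 H3.1 libraries. The smooth muscle and myofibroblast sum, mostly Acta2, was 161337 and 160306 in H3.3 G34W K36R, against 63181 and 67177 in H3.3 G34W and 49092 and 49283 in H3.3 wild type. Tagln had a higher mean there as well (7355 against 1968 and 443). Cnn1 and Myh11 were lower there (74.8 and 36.5) than in H3.3 G34W (271 and 106), against 93.4 and 16.95 in H3.3 wild type. The part of these markers in these results was not tested.

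Further genes of bone formation were read from 4 lists of transcription factors, matrix and mineralization genes, genes of osteoclast coupling and hormone response, and genes of BMP signalling. Of 11, 16, 10 and 17 genes in the table, 8, 12, 9 and 14 were tested. In H3.3 G34W compared with H3.3 wild type, 1 of the 43 was called, beside 1.18% of all genes. That was Wnt5a, a Wnt ligand that can enhance osteoclast formation (569 ± 92.8, SD, n = 2, against 239, log2 fold change 1.24 ± 0.23 SE, limma adjusted p = 0.0392, and 1 under the strict count). It was lost without any 1 library of H3.3 G34R, H3.3 K27R or either double mutant, and without H3.3 G34W replicate 1 (0.0501 to 0.0888). With the 2 groups fitted alone its adjusted p was 1. H3.3 G34R compared with H3.3 wild type called 0 of the 43 by limma, beside 2.72% of all genes, with 7 at an unadjusted p under 0.05 and 0 called under the strict count.

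Mgp, which encodes matrix Gla protein, an inhibitor of calcification, was highest in H3.3 G34W K27R, as Spp1 and Dmp1 were. Mgp was 43683 and 41403 in H3.3 G34W K27R and 24993 and 24413 in H3.3 K27R, against 4116 and 4011 in H3.3 wild type. Both groups lay far above H3.3 wild type, with log2 fold changes of 3.39 ± 0.50 SE in H3.3 G34W K27R (limma adjusted p = 0.00149) and 2.60 ± 0.50 SE in H3.3 K27R (limma adjusted p = 0.0225). The second call was lost without either H3.3 K27R library (0.121 each), and the strict count gave 0.0873 and 0.843. Against H3.3 G34W (3611.6 ± 2083, SD, n = 2) H3.3 G34W K27R was higher by 3.69 ± 0.41 SE (limma adjusted p = 0.000141, and 0.0291 under the strict count). Phex, whose product acts on matrix phosphoproteins and on phosphate handling, was 927 and 916 in H3.3 G34W K27R, against 35.4 and 20.2 in H3.3 wild type (log2 fold change 5.003 ± 1.187 SE, limma adjusted p = 0.0188, 0.293 under the strict count, and 0.0758 and 0.0763 without either double-mutant library). In H3.3 G34W, Phex was 675 in replicate 1 and 35.3 in replicate 2, the split also seen for Postn. The adipocyte markers given above moved the same way, summing to 10127 and 9917 in H3.3 G34W K27R and to 16588 and 851 in H3.3 G34W replicates 1 and 2, and their part in the Phex values was not tested. In all, 3 of 12 matrix and mineralization genes were higher and 0 lower in H3.3 G34W K27R than in H3.3 wild type, beside 14.3% of all genes (813 higher and 1002 lower), and the strict count called none of the 3.

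Csf1, the gene of macrophage colony-stimulating factor, which osteoclast precursors require, was highest in the same double mutant. It was 41111 and 42173 in H3.3 G34W K27R, 9436 and 13637 in H3.3 G34W and 9046 and 9083 in H3.3 K27R, against 12043 and 12129.5 in H3.3 wild type. H3.1 wild type, at 33753 and 29757, was also called above H3.3 wild type (1.39 ± 0.39 SE, limma adjusted p = 0.0207, and 0.174 under the strict count). Csf1 was 31547 and 13583 in H3.1 G34W, 18939 and 18742 in H3.3 G34W K36R, and 6063 and 6267 in H3.3 G34R. Its level in H3.3 G34W K27R was several times that of each reference, with log2 fold changes of 1.88 ± 0.32 SE against H3.3 G34W, 2.20 ± 0.32 SE against H3.3 K27R and 1.78 ± 0.39 SE against H3.3 wild type (limma adjusted p = 0.00208, 0.000909 and 0.0123). The interaction of G34W with K27R was called as well (2.29 ± 0.50 SE, limma adjusted p = 0.0204), the 1 call among the 43 list genes for that interaction, beside 7.95% of all genes. Under the strict count the 4 adjusted p values were 0.155, 0.246, 0.332 and 0.637. Without either H3.3 G34W K27R library the call against H3.3 wild type lay at 0.0548 and 0.0593, and without any 1 library of H3.3 G34W K27R or H3.3 K27R the interaction lay at 0.0681 to 0.0728.

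Grem1, Pth1r and Msx2 also differed in the groups with high Tnfrsf11b. Grem1, which encodes the secreted BMP antagonist gremlin, was 2175 and 2987 in H3.1 G34W and 2699 and 2638 in H3.3 G34W K36R, against 163 and 61.2 in H3.3 G34W. It was 3116 and 1451 in H3.1 wild type and 2084 and 2227 in H3.3 K27R, against 240.1 and 247 in H3.3 wild type. Every one of these groups lay about an order of magnitude above its H3.3 counterpart. The log2 fold changes were 4.66 ± 0.42 SE for H3.1 G34W and 4.72 ± 0.42 SE for H3.3 G34W K36R against H3.3 G34W (limma adjusted p = 3.08e-05 and 5.58e-05), and 3.12 ± 0.52 SE for H3.1 wild type and 3.14 ± 0.52 SE for H3.3 K27R compared with H3.3 wild type (limma adjusted p = 0.00176 and 0.0118). The strict count kept the first 3 (0.00306, 0.0274 and 0.0427) and not the last (0.65), which was also lost without either H3.3 K27R library (0.0644 and 0.0777).

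Nog, the gene of another BMP antagonist, was lower in H3.3 G34W K36R, H3.1 G34W and H3.3 K27R, but not only where Grem1 was higher. It was 9.78 and 9.7 in H3.3 G34W K36R and 66.3 and 10.8 in H3.1 G34W, against 136 and 247 in H3.3 G34W. In H3.3 K27R it was 7.44 and 6.23, against 94.9 and 108 in H3.3 wild type. The log2 fold changes were -4.10, -2.71 and -3.71 (limma adjusted p = 0.00204, 0.011 and 0.0481), and the strict count kept none. Against H3.3 wild type, H3.1 wild type was not called (-0.95). In H3.3 G34W K27R, Nog was 11.1 and 15.6, called lower than in H3.3 wild type (-2.85, limma adjusted p = 0.0484, and 0.538 under the strict count). Grem1 was 265 and 255 there, near H3.3 wild type. In H3.3 G34R, Nog was 23.7 and 19.3 and Grem1 123 and 115, both below H3.3 wild type without being called. Pth1r, the receptor gene for parathyroid hormone, was lower in the groups with high Tnfrsf11b and, less far, in H3.3 G34W K27R, where Tnfrsf11b was low. It was 48.9 and 40.55 in H3.3 G34W K36R, against 713 and 903 in H3.3 G34W (log2 fold change -4.14 ± 0.35 SE, limma adjusted p = 3.81e-05, and 0.0423 under the strict count). In H3.3 G34W K27R it was 177 and 203, called lower than in H3.3 G34W (-2.07 ± 0.35 SE, limma adjusted p = 0.00212) and than in H3.3 wild type (-1.98 ± 0.43 SE, limma adjusted p = 0.0122), with 0.219 and 0.428 under the strict count. The second call was also lost without H3.3 G34W K27R replicate 1 (-1.88, adjusted p = 0.0692). In H3.1 G34W it was 7.25 and 12.3, in H3.3 K27R 380 and 328, in H3.1 wild type 3.03 and 0.98, and in H3.3 wild type 729.6 and 778. The difference of H3.3 K27R from H3.3 wild type was not called (-1.09, limma adjusted p = 0.279). Msx2, a homeodomain factor of early osteogenic cells, was 139 and 123 in H3.3 G34W K36R, against 41.1 and 36.7 in H3.3 G34W (1.73 ± 0.41 SE, limma adjusted p = 0.0109, 0.241 under the strict count, and 0.0569 and 0.075 without either H3.3 G34W K36R library). It was 199 and 215 in H3.1 wild type, against 21.55 and 20.4 in H3.3 wild type (3.24 ± 0.50 SE, limma adjusted p = 0.00123, and 0.0257 under the strict count). In H3.3 K27R, Msx2 went the other way, at 11.75 and 3.76, without being called against H3.3 wild type (-1.50, limma adjusted p = 0.19). In H3.1 G34W against H3.3 G34W the BMP list had 2 genes higher and 7 lower of 14 tested, beside 40.9% of all genes (2480 higher and 2701 lower). Under the strict count it had 1 higher and 4 lower, beside 1417 of all 12670 genes.

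**Figure D4:**
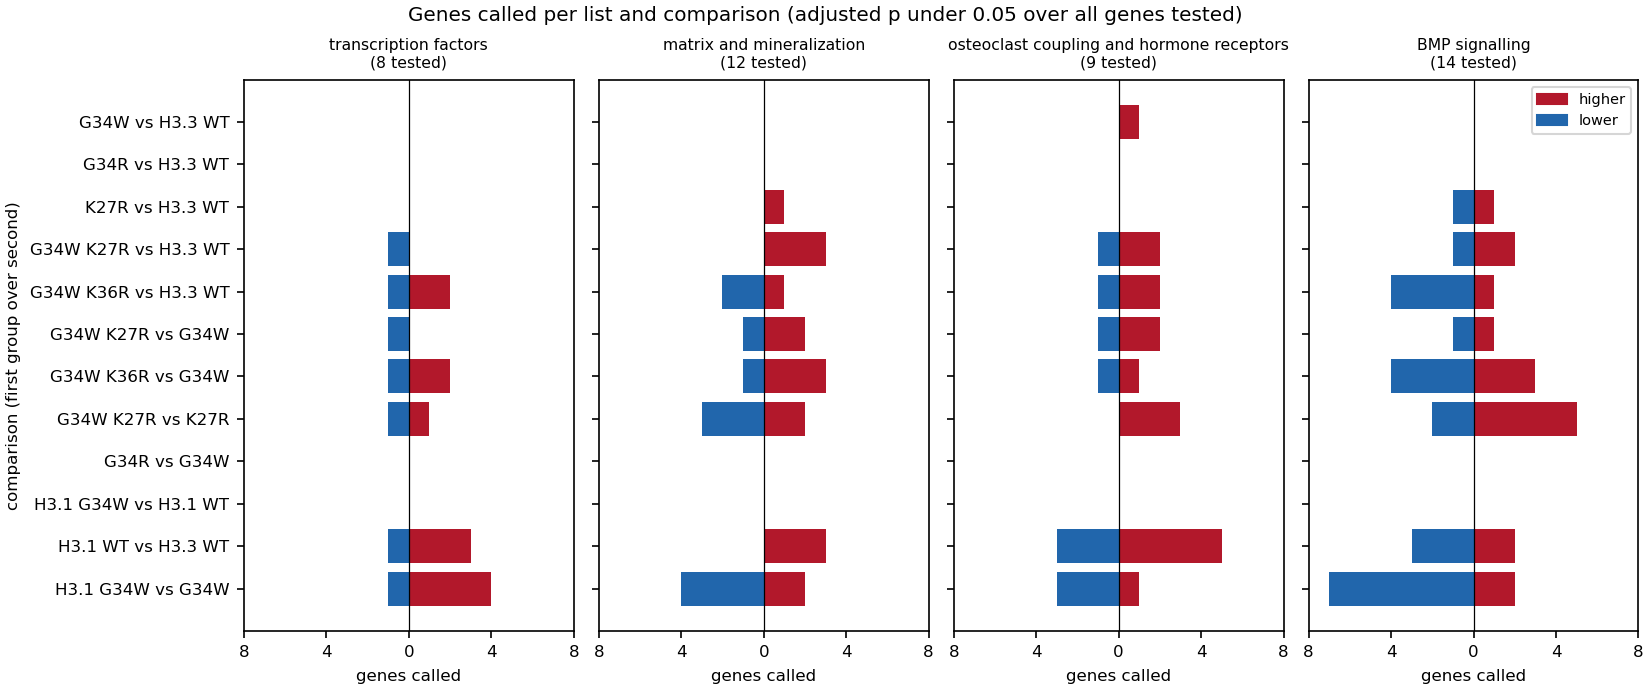
Number of genes called higher (red, right of 0) and lower (blue, left of 0) in each of the 4 further lists, by comparison, first group over second. H3.3 G34R against either H3.3 wild type or H3.3 G34W, and H3.1 G34W over H3.1 wild type, hold no call in any list, and H3.1 G34W against H3.3 G34W holds 7 lower BMP genes.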

How the data were processed

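Polyadenylated RNA was sequenced in 16 libraries, 2 for each of 8 transgenes. The deposited values are a signal: per the submitters' processing notes, the authors ran RSEM 1.2.4 and used mm9, and the names of the deposited tables state a median normalization of these estimated counts. Aligner and annotation are not given in the sources used here. Only 41.5% to 47.6% of values above 0 lay within 0.01 reads of a whole read, so reads could not be recovered and no count model was run. The value of 1 read gave the estimated depth and a floor of 3 reads at 2.27 to 3.74. A second deposited table repeats a subset of genes and was not used.

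Log2(value + 1) was modelled for 12670 genes, those with a mean of 10 or more, all groups together, in limma 3.58.1 under R 4.3.3, with the trend and robust options of eBayes (statmod 1.5.0). Tests were two-sided, with Benjamini-Hochberg adjustment over all genes. The pair of H3.3 wild-type libraries was averaged (chi-square p = 0.941 over 2764 genes with whole reads and at least 20 reads, but p = 6.05e-63 over all 12462 such genes), which left 15 samples and 7 residual degrees of freedom. The 5 close pairs had a chi-square per degree of freedom of at most 2 over genes with whole reads. There were 12 comparisons between groups, 2 interactions and 1 F test over all groups. The fit was checked on simulated data. The 9 genes, the further lists and the tests were chosen with earlier results of these data known. All 9 genes were to be named, and of the further lists up to 4 called genes per comparison, largest change first.

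Alternatives were the strict count of close pairs, separate H3.3 wild-type libraries, pseudocounts of 0.5 and 5, either no filter or a mean of at least 50, TMM or quantile rescaling, eBayes without its options, fits restricted to the compared groups, a block on replicate number, and each library left out in turn. Motifs were searched in RefSeq windows of 250 bases.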

Additional observations from a re-analysis of the deposited data

Results flagged for a closer look

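The effect of G34W differed between the unchanged H3.3 tail and the K27R tail, by a test of the difference itself, for 3 of the 8 genes tested. For Alpl the log2 difference of the effects was -5.46 (limma adjusted p = 0.00215), for Spp1 it was 3.50 (adjusted p = 0.00343) and for Tnfrsf11b it was -1.40 (adjusted p = 0.0168). None of the 3 was called with close pairs counted as 1 sample each, at adjusted p values of 0.322, 0.307 and 0.764.

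Tnfrsf11b was picked out a second time because both libraries of a group moved the same way and the groups moved in opposite ways. How many of all genes show such a pattern was not counted. With G34W, both H3.1 libraries lay above H3.1 wild type (21256 and 22063 in H3.1 G34W, 17633 and 15022 in H3.1 wild type), and both H3.3 libraries lay below H3.3 wild type (2104 and 3335 in H3.3 G34W, 3554 and 3421 in H3.3 wild type). The log2 difference of the effects was 0.81, which was called neither by limma (adjusted p = 0.366) nor under the strict count. Without H3.3 G34W replicate 2 it was 1.14 and was called (adjusted p = 0.00693).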

How the results depend on the processing

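None of the 59 gene results checked turned its direction under any of the 27 alternatives (16 that leave out a library and 11 others). Pseudocounts, TMM rescaling and a minimum mean of 50 (without Alpl, which that filter drops) changed no call among them. The counts below are of the 8 tested genes. The strict count also called few of all tested genes in either double mutant compared with H3.3 wild type. It called none of all tested genes in the H3.3 single mutants compared with H3.3 wild type, or in H3.3 G34W K27R against H3.3 K27R. Its counts of 0 in these comparisons are thus not particular to this list. With close pairs counted as 1 sample each, which leaves fewer samples, the calls against H3.3 wild type were 0 for H3.3 G34W, H3.3 G34R, H3.3 K27R, H3.3 G34W K27R and H3.3 G34W K36R. They were 1 for H3.3 G34W K27R and 1 for H3.3 G34W K36R against H3.3 G34W, 0 for H3.3 G34W K27R against H3.3 K27R, 3 for H3.1 G34W against H3.3 G34W, 0 for the interaction of G34W with K27R and 3 for any difference among groups. Fits of the compared groups alone called 0 for H3.3 G34W, 6 for H3.3 G34R, 7 for H3.3 K27R, 7 for H3.3 G34W K27R and 7 for H3.3 G34W K36R against H3.3 wild type, beside 0%, 60.7%, 55.4%, 67.1% and 75.5% of all tested genes in that order. They called 2 for H3.3 G34W K27R against H3.3 G34W, 7 for H3.3 G34W K27R against H3.3 K27R and 2 for H3.1 G34W against H3.3 G34W, beside 6.62%, 76.3% and 4.19%. In these fits 10 of the 59 gene results named were lost and 5 gained. Counting the H3.3 wild-type libraries separately gave 3 calls for H3.3 G34W and 2 for H3.3 K27R against H3.3 wild type. The replicate numbers do not pair the samples (correlations of replicate differences over 28 pairs of groups -0.265 to 0.06), and a replicate block, with the wild-type libraries separate, gave 3 calls for H3.3 G34W, 2 for H3.3 G34R and 2 for H3.3 K27R against H3.3 wild type. Leaving out 1 library gave 0 to 3 calls for H3.3 G34W, 0 to 1 for H3.3 G34R and 0 to 1 for H3.3 K27R against H3.3 wild type, and 0 to 1 for H3.3 G34R against H3.3 G34W. It gave 0 to 3 for H3.1 G34W over H3.1 wild type, 3 to 6 for H3.1 wild type against H3.3 wild type (6 without either H3.1 G34W library) and 0 to 1 for the interaction with histone type. A library left alone in its group was taken to have the spread of the rest. The cause of these changes was not tested. Depth limits Ibsp, Alpl and Dmp1 most, whose lowest groups hold 0 to 19 reads per library.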

Other observations

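Over the 16 libraries, the genes whose log2 values ran most like each osteoblast gene were looked up by Pearson's r among about 10600 genes with a mean of at least 50. The libraries share groups, depth and normalization, so these r values are descriptions. Tnfrsf11b ran with Alcam (r = 0.986, n = 16 libraries), a cell adhesion gene whose value ranged from 166 to 10371. Sparc ran with Fgfrl1 (r = 0.969) and Fstl1 (r = 0.964), and Fstl1 encodes a secreted glycoprotein related in sequence to osteonectin. Alpl ran with Ces2g and Des (r = 0.965 each). Dmp1 ran with Agtr2 (r = 0.95), the angiotensin type II receptor gene, which lay between 0 and 431. Postn ran with Scd1 (r = 0.953), a lipid desaturase gene, at 2213 to 18161. Spp1 had Fbxo28 (r = 0.931), Runx2 had Cacna1h (r = 0.942) and Dlx5 had Tsc22d3 (r = 0.946).

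Bmp2, a ligand that induces osteoblast differentiation, was listed at 0 in all 16 libraries. Col1a1, the main collagen gene of bone, was 246412 ± 62196 in H3.1 G34W, against 217507 ± 59011 in H3.1 wild type (SD, n = 2 each), a difference within the spread. It was 346115 ± 5375 in H3.3 G34W K36R, 117339 ± 99399.9 in H3.3 G34W and 234190.4 ± 21512 in H3.3 K27R (SD, n = 2 each), against 107373 in H3.3 wild type.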
